A study of Mus musculus with 3 samples.

Results

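Genes of the core of the Ras, Raf and MAP kinase pathway were read on 3 mouse whole-transcript arrays, 1 per group. The list held 7 genes: Hras, Nras, Braf, Nf1, Rasa1, Map2k1 and Mapk3. A gene was taken where the platform annotation gave its symbol to a probe set, a group of probes read as 1 value. This found 5 of the 7, namely Nras, Braf, Nf1, Rasa1 and Map2k1, among 22180 named genes. Hras and Mapk3 were not analysed here. The groups were FULA 1, a mouse lung adenocarcinoma line grown in serum-containing medium, lung cells of FVB mice injected with saline, and lung cells of FVB mice injected with urethane into the peritoneum and taken 1 week later. FVB is an inbred strain prone to lung tumours, and urethane is a carcinogen that gives lung adenomas in mice. FULA 1 is a single line, and its strain, the age and number of the mice and the time of the saline lung are not stated in these sources. The design sets the carcinogen-treated lung beside the control lung, and the line beside both.

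Ras proteins are small GTPases at the inner face of the cell membrane that are active when they hold GTP. Exchange factors load GTP onto Ras, and GTPase-activating proteins such as neurofibromin (Nf1) and p120 RasGAP (Rasa1) speed its hydrolysis and so switch Ras off. Active Ras recruits Raf kinases such as Braf, which phosphorylate MEK kinases such as MEK1 (Map2k1), which in turn phosphorylate the ERK kinases. Activating Ras mutations are frequent in lung adenocarcinoma and in the lung tumours that urethane gives in mice. The arrays read RNA levels, and neither mutations nor the activity of any of these proteins was measured.

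With 1 array per group no difference could be set against a spread between replicates, and no test of significance was run. Each value is thus a statement about these 3 arrays only. The deposited log2 columns had different scales, with medians over all probe sets of 4.96 on FULA 1, 0.08 after saline and 1.22 after urethane. Each gene is therefore given by its deposited value, by its percentile rank among the 41345 probe sets of its array, which a monotone rescaling leaves as it is, and by its log2 value after quantile normalization of the 3 arrays. Signals of different probe sets depend on their probes and do not order the genes by amount of transcript. A gene was counted as higher or lower where the normalized difference was at least 2-fold (1 on the log2 scale) and the higher value lay at or above the median of all gene values, 2.37. All 5 genes lay above that floor on all 3 arrays. All 5 also lay above a background mark, the 95th percentile of 1105 olfactory receptor genes, on every array, by 1.33 (Nf1 on the saline lung) or more on the normalized log2 scale.

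The RNA of the lungs and of the line differed widely in cell type markers. The 4 alveolar type II markers had a mean normalized value of 2.10 on FULA 1, 8.49 with saline and 8.84 with urethane, and the 4 endothelial markers one of 1.998, 5.68 and 5.65. On FULA 1, 2 of 3 club cell, 2 of 4 endothelial, 2 of 4 fibroblast and 2 of 3 leukocyte markers lay below the background mark, and 1 of 4 alveolar type II markers did. The 2 measured proliferation markers, Mki67 and Top2a, had a mean of 6.61 on FULA 1 against 3.38 and 2.99 on the saline and urethane lungs. The 4 epithelial markers did not run together: Krt8 was at 10.27 on FULA 1 against 5.43 and 5.60, whereas Epcam was at 3.31 against 3.82 and 4.59. The part of cell makeup in the differences below was not tested, and in tissue RNA fewer cells of a type and less RNA per cell cannot be told apart.

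In FULA 1 the Ras inhibitor gene Nf1 and the MEK1 gene Map2k1 were higher than in both lungs, by 2.58-fold to 3.25-fold against the saline lung and by 2.65-fold to 2.74-fold against the urethane lung. Nras was lower than in the saline lung, by 2.45-fold, a direction lost when the arrays were only brought to a common median. Braf and Rasa1 stayed within 2-fold in all 3 comparisons of normalized values, but at a common median both passed 2-fold higher in FULA 1 against each lung. Between the lungs no member of the core differed by 2-fold.

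The stretch of genome upstream of Map2k1 is shown because this gene was higher on FULA 1 than on both lungs and the stretch lies outside the RefSeq gene bounds of Map2k1. It is printed from RefSeq on GRCm38.p6, and matches to the GC box GGGCGG on either strand, a motif bound by Sp family factors, are in capitals. It covers the 250 bases before the start of the gene, at chr9:64253606-64253855 on the minus strand.
Map2k1: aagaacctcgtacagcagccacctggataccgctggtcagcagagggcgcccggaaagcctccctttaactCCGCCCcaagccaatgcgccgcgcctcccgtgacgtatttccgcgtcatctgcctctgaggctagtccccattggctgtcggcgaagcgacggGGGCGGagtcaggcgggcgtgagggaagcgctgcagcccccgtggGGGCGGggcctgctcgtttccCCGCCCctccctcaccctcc
The stretch held 4 GC boxes, and 32.7% of all 32851 promoter windows of that length held at least 1. GC content was 68.4%, with 24 CpG, more than in 88.0% of the windows. The palindromic cyclic AMP response element TGACGTCA had 0 matches and occurred in 1.55% of the windows. A CCAAT box (CCAAT, either strand) matched 2 times and occurred in 33.8% of the windows. These matches describe the sequence, and promoter activity was not measured.

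Nras encodes a Ras GTPase and is itself a proto-oncogene. Its deposited log2 value was 9.04 on FULA 1, 4.13 after saline and 4.41 after urethane. Its percentile rank was highest on the saline lung at 96.0, followed by the urethane lung at 94.5 and FULA 1 at 91.1. The normalized values were 6.39, 5.91 and 5.10 in that order, a difference of -1.29 (log2, FULA 1 minus saline), which counted as lower, and of -0.81 (FULA 1 minus urethane), which did not. The difference of -1.29 shrank to 0.027 and changed sign when the arrays were only shifted to a common median, so its direction rests on the scaling. Between the lungs Nras differed by -0.48 (urethane minus saline). On the urethane lung 40 other probe sets held the same deposited value as Nras, so that value is coarse. The RefSeq table also lists a pseudogene, Nras-ps2, whose transcripts could share probes, and whether they do was not tested.

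Braf encodes the Raf kinase that most strongly activates MEK. Its percentile rank was 93.9 on FULA 1, 94.4 after saline and 93.4 after urethane, a span narrower than that of any other measured member. The deposited values were 9.61, 3.50 and 4.15, and the normalized ones 5.73, 5.88 and 5.60. The difference was -0.15 (log2, FULA 1 minus saline), 0.12 (FULA 1 minus urethane) and -0.27 (urethane minus saline). Among the 13590 genes past the floor, the first of these lay at percentile 45.5, near the middle. At a common median Braf was higher in FULA 1 by 1.23 and 1.72 against the saline and urethane lungs.

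Map2k1 encodes MEK1, the kinase that phosphorylates ERK. Its percentile rank was 92.4 on FULA 1, with 83.2 after saline and 82.6 after urethane. The deposited values were 9.32, 1.46 and 2.68, and the normalized values 5.39, 4.02 and 3.98. FULA 1 stood apart from both lungs, by 1.37 (log2, against saline) and 1.41 (against urethane), and the lungs differed by -0.04. These FULA 1 differences lay at percentiles 85.4 and 86.9 of all genes past the floor in the same comparison, so many genes differed by more. On the saline lung 131 other probe sets shared the deposited value of Map2k1.

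Nf1 encodes neurofibromin, a tumour suppressor that turns Ras off. Its percentile rank was 93.0 on FULA 1, 80.9 after saline and 83.5 after urethane. The deposited values were 9.43, 1.25 and 2.71, and the normalized values 5.50, 3.80 and 4.04. Nf1 had the largest differences of the 5 genes in both FULA 1 comparisons, 1.70 (log2, against saline; percentile 90.3 of genes past the floor) and 1.46 (against urethane; percentile 87.6). Between the lungs it differed by 0.25. On the saline lung 40 other probe sets shared its deposited value. Nf1 is a long gene that holds other genes within its bounds in RefSeq. Of these, Omg, a myelin glycoprotein gene, lay below the background mark on all 3 arrays, with normalized values from 1.33 (FULA 1) to 1.66 (urethane lung). The long noncoding RNA AU040972 had values of 1.65, 4.22 and 3.67 and so ran opposite to Nf1.

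Rasa1 encodes p120 RasGAP, which carries SH2 domains that bind activated receptors. Its percentile rank was 90.4 on FULA 1, 87.0 after saline and 90.0 after urethane. The deposited values were 8.93, 1.90 and 3.51, and the normalized values 4.98, 4.47 and 4.91. It was the member whose urethane value lay farthest above the saline value, by 0.44 (log2), at percentile 84.3 of the 12519 genes past the floor in that comparison. On FULA 1 it differed by 0.51 from the saline and by 0.07 from the urethane lung. These differences became 2.14 and 1.68 at a common median, and 0.26 and -0.18 after lowess. On the saline lung 85 other probe sets shared its deposited value.

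**Figure D1:**
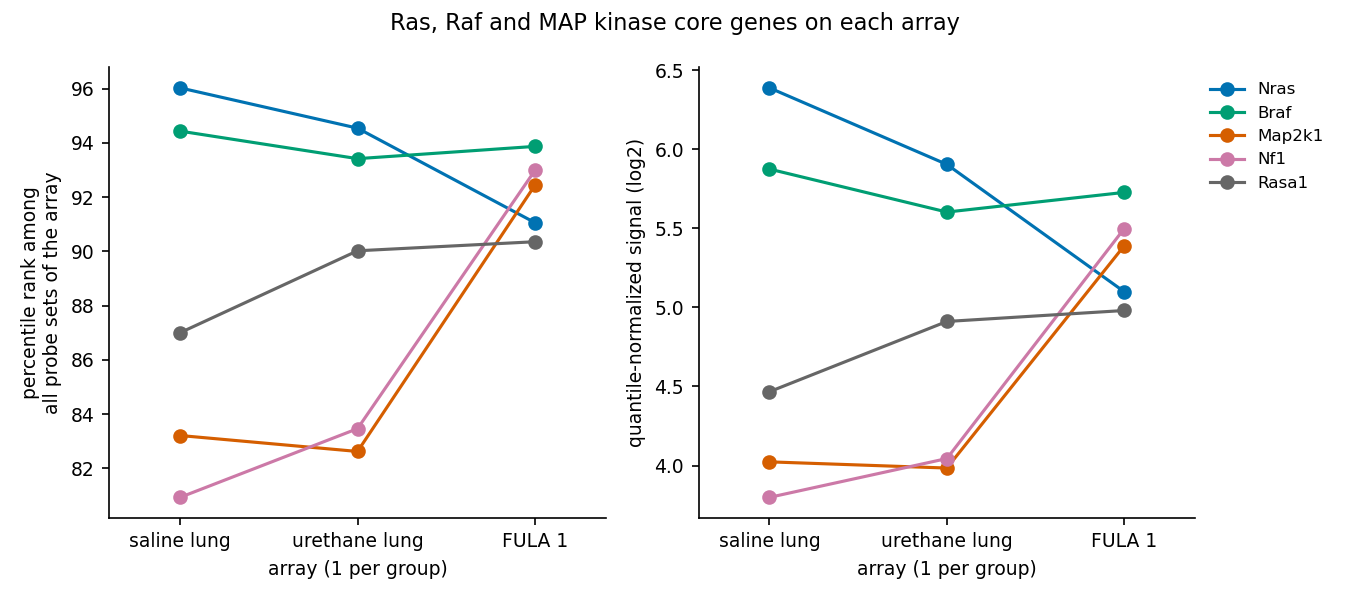
Percentile rank among all probe sets of the array (left axis, 0 to 100 scale cut to the range of the data) and quantile-normalized log2 signal (right) of the 5 measured genes on the saline lung, urethane lung and FULA 1 arrays, 1 point per array. Nf1 and Map2k1 lie between 80.9 and 83.5 in rank on the lungs and at 93.0 (Nf1) and 92.4 (Map2k1) on FULA 1. Nras runs from 96.0 to 91.1 and Braf stays between 93.4 and 94.4.

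Against the saline lung, 2 of the 5 members (Nf1 and Map2k1) were higher on FULA 1 by 2-fold or more and 1 (Nras) was lower. By the same rule 22.6% of all genes past the floor were higher and 22% lower. Against the urethane lung 2 were higher and 0 lower, where 22.1% of genes were higher and 19.5% lower. Between the lungs 0 were higher and 0 lower, where 3.27% of genes were higher and 1.31% lower (urethane against saline). With 5 genes such counts are near these shares. The median difference of the members was 0.51 (FULA 1 minus saline), beside 0.02 over all genes past the floor, 0.12 beside 0.07 (FULA 1 minus urethane) and -0.04 beside -0.07 (urethane minus saline). The comparisons share arrays, so they are not independent of each other.

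The scalings changed sizes more than order. A shift of whole arrays cannot change the order of the differences, so the deposited values and the common median share theirs by construction and are no separate checks. With these and with the other 3 scalings, the difference between FULA 1 and the saline lung ran from Nf1 at the top through Map2k1, Rasa1 and Braf to Nras at the bottom. Nf1 and Map2k1 led and Nras came last against the urethane lung too, with Braf just above Rasa1 there. Between the lungs the order was Rasa1, Nf1, Map2k1, Braf and Nras. Without the deposited values, Nf1 ranged from 1.39 to 3.29 and Map2k1 from 1.08 to 2.97 (log2, FULA 1 minus saline), at least 2-fold higher throughout. Rasa1 ranged from 0.26 to 2.14, Braf from -0.35 to 1.23 and Nras from -1.54 to 0.027.

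**Figure D2:**
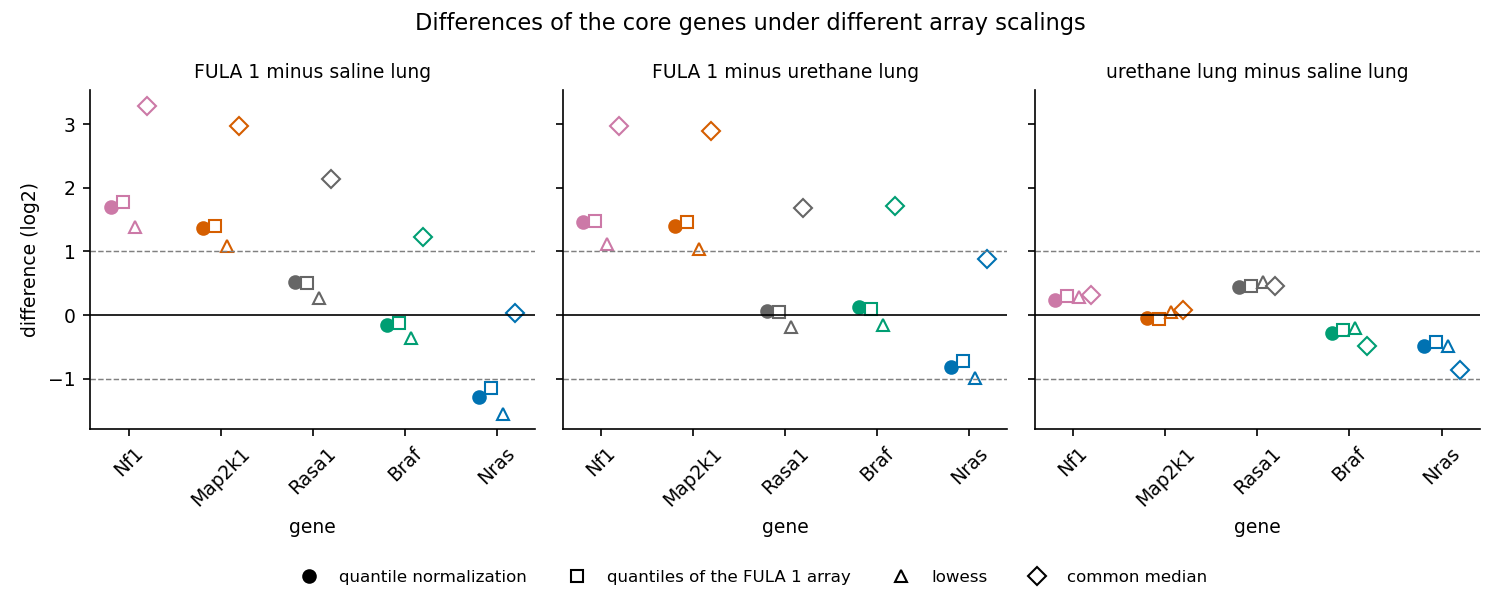
Log2 difference (vertical axis) of each member in the 3 comparisons under 4 scalings of the arrays, with the deposited values left out; filled circles are quantile normalization and dashed lines mark 2-fold. Nf1 and Map2k1 lie above the upper dashed line in both FULA 1 comparisons under all 4, while the common median lifts every member there, Nras to 0.027 and 0.89.

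Each member rested on 1 probe set, so agreement between probe sets could not be read for the members themselves. Over the 378 genes that had 2 probe sets, each past the floor, both had the same sign of difference (FULA 1 minus saline) in 60.3%, and the pair differed by a median of 1.05 (log2). The differences of Nf1 (1.70), Map2k1 (1.37) and Nras (-1.29) thus exceed that median gap, but not its upper quartile of 1.77. Between the lungs the median gap was 0.43 over 315 genes, which only Nras (-0.48) and Rasa1 (0.44) exceeded in size, and its upper quartile 0.76. Among the other pathway genes below, 10 had more than 1 probe set. Their probe sets had the same sign in 7 of 10 genes (FULA 1 minus saline), with a median gap of 0.68 and the widest in Ywhaz, a 14-3-3 protein gene, from -0.91 to 1.59.

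Related genes of the same step differed in how they stood beside the members. Map2k2 encodes MEK2, the close relative of MEK1. Its percentile rank was 85.6 on FULA 1, 92.6 after saline and 89.6 after urethane, so that it was lower on FULA 1 than on both lungs where Map2k1 was higher. Between the lungs Map2k2 differed by -0.56 (log2, urethane minus saline) and Map2k1 by -0.04. The normalized difference of Map2k2 was -1.12 (log2, FULA 1 minus saline), turning to 0.40 at a common median. The gap between the differences of Map2k1 and Map2k2 was 2.49 (FULA 1 minus saline) and ranged from 2.49 to 2.57 over the scalings. A shift common to all genes cancels in such a gap, so the deposited values and the common median give the same one, and this range says little about the scaling. Against the urethane lung this gap was 1.96, and between the lungs 0.53. Unequal values of this kind do not show which of the pair differed.

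Araf, a Raf kinase gene on the same step as Braf, had percentile ranks of 85.7 on FULA 1, 74.7 after saline and 74.5 after urethane. Its difference was 0.98 (log2, FULA 1 minus saline), just short of 2-fold. The difference of Braf was therefore 1.13 below that of Araf in this comparison, with a range of 0.94 to 1.37 over the scalings. Among GTPase-activating proteins, the difference of Nf1 exceeded that of Rasa1 by 1.19 (FULA 1 minus saline, range 1.13 to 1.27). These are gaps between differences and not between signal levels. Rasa3, another Ras GTPase-activating protein gene, was higher in FULA 1 than in the saline lung by 1.17 and in the urethane than in the saline lung by 0.56, close to the 0.44 of Rasa1. Rras, a Ras relative, differed by -1.28 (FULA 1 minus saline), nearly as Nras did. The gap of Nras to Rras was -0.01 and changed sign over the scalings, from -0.15 to 0.44.

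**Figure D3:**
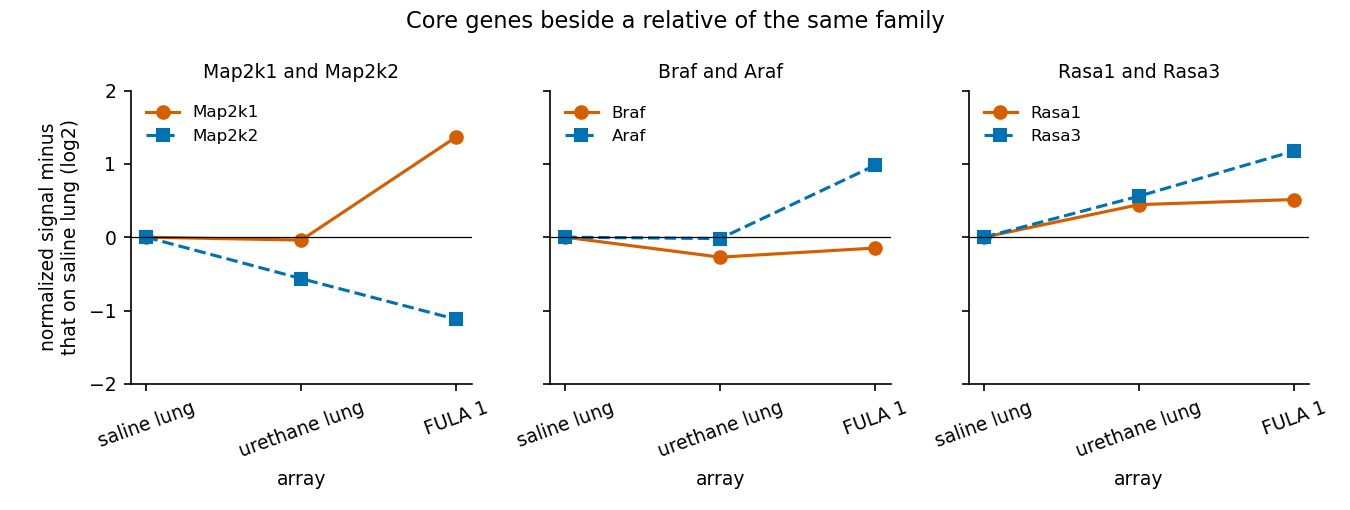
Quantile-normalized log2 signal minus that on the saline lung (vertical axis) for Map2k1 with Map2k2, Braf with Araf and Rasa1 with Rasa3, 1 point per array. On FULA 1 Map2k1 lies at 1.37 and Map2k2 at -1.12, Braf at -0.15 and Araf at 0.98, and Rasa1 at 0.51 and Rasa3 at 1.17.

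The other genes of the pathway were taken from 10 lists of 84 genes, of which 73 were measured. In FULA 1 against the saline lung 22.6% of all genes past the floor were higher by 2-fold or more and 22% lower. Of the 69 pathway genes past the floor 14 were higher and 12 lower (20.3% and 17.4%). At a common median these counts became 36 and 2, where 51.6% of all genes past the floor were higher and 13.1% lower, and after subtraction of a lowess curve 7 and 19, where 17.3% were higher and 22.2% lower. Against the urethane lung 15 were higher and 9 lower of 68, where 22.1% of all genes were higher and 19.5% lower. The counts there were 43 and 1 at a common median, where 52.9% of genes were higher and 11.5% lower. After lowess they were 8 and 13, where 17.6% of genes were higher and 20.3% lower. Between the lungs 2 of 67 were higher in the urethane lung and 0 lower, where 3.27% of all genes were higher and 1.31% lower. Median differences of the pathway genes were 0.04, -0.01 and -0.14. Over all genes past the floor they were 0.02, 0.07 and -0.07 in the same 3 comparisons.

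The counts by list stand beside 22.6% of all genes past the floor higher in FULA 1 than in the saline lung and 22% lower. Among the relatives of Ras, 0 of 7 genes were higher and 3 were lower. The lower ones were Rala at -1.50, Rras at -1.28 and Ralb at -1.16 (log2), and Rras2 was the highest at 0.42. Of 7 genes for exchange factors, which act upstream of Ras, past the floor 1 was higher, Sos1 at 1.01 (0.61 after lowess), and 3 lower. The 3 were Rasgrp2 at -1.56 (lower by at least 1.30 with the background mark as its FULA 1 value), Rasgrp4 at -1.16 (at least 0.86) and Rasgrp1 at -1.01, which lay below the mark on all 3 arrays and has no exact size. Rasgrp3 differed by -0.84 and stayed at percentile rank 95.3 on FULA 1. Rasgrp genes encode exchange factors known best from blood cells. Of the leukocyte markers Ptprc was at 1.62 on FULA 1 and 3.06 on the saline lung, Cd3e at 1.72 and 3.09, and Cd68 at 3.56 and 3.43, and their part in these differences was not tested. Of 5 adaptor genes 2 were lower, the docking protein genes Gab2 at -2.13 and Gab1 at -1.47, while Shc1 was the highest at 0.87 and reached 1.52 against the urethane lung. At a common median 5 of these 8 lower genes no longer reached 2-fold: Rras (-0.41), Rala (-0.49), Ralb (-0.64), Gab2 (-0.83) and Gab1 (-0.05). The relatives of Ras then had 2 higher and 0 lower, and the adaptors 1 higher and 0 lower. The exchange factors, with the floor applied, had 1 higher and 2 lower. After lowess the relatives of Ras had 0 higher and 4 lower, the adaptors 0 higher and 3 lower, and the exchange factors 0 higher and 2 lower. Rasgrp4 (-0.79) and Rasgrp1 (-0.64) then no longer reached 2-fold, while Rasgrp3 (-1.03) did.

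At the level of the GTPase-activating proteins and the partners of neurofibromin, 1 of 8 genes was higher and 0 lower. The higher one was Rasa3 at 1.17 (0.79 after lowess). Of all genes past the floor 22.6% were higher and 22% lower (FULA 1 minus saline). Spred1 and Spred2, whose proteins bring neurofibromin to the membrane, differed by 0.04 and 0.20 (log2, FULA 1 minus saline). Rasal2 was the lowest at -0.91, and passed 2-fold after lowess (-1.35). The counts of these 8 genes became 4 and 0 at a common median and 0 and 1 after lowess. Of 9 genes for lipid modification and trafficking of Ras 1 was higher and 0 lower. This was Icmt, which methylates the prenylated end of Ras proteins, at 1.03 (0.63 after lowess). Lypla2 was the lowest at -0.69. The counts of this list became 7 and 0 at a common median and 0 and 1 after lowess. Icmt was also 1 of the 2 pathway genes at least 2-fold higher in the urethane than in the saline lung, at 1.19. Against the urethane lung Fntb, the farnesyltransferase beta subunit gene, was higher by 1.17 (at least 0.65) and the palmitoyltransferase gene Zdhhc9 by 1.12. After lowess these differences were 1.04 and 0.77.

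Of the scaffold and partner genes 9 lay past the floor, with 3 higher and 1 lower on FULA 1 (against the saline lung). In this comparison 22.6% of all genes past the floor were higher and 22% lower. The scaffold counts became 5 and 0 at a common median and 1 and 2 after lowess. Iqgap1, a scaffold of Raf, MEK and ERK, was at 1.51 (1.30 after lowess). Ksr1, a scaffold of the Raf and MEK kinases, was at 1.11 (at least 1.01), and at 0.71 after lowess. Its saline value lay below the background mark, and against the urethane lung Ksr1 differed by only 0.24. Lamtor3, which anchors MEK1 on late endosomes, was at 1.04 (0.76 after lowess). Lamtor2, the partner of Lamtor3, was at -1.19, which turned to 0.20 at a common median. Of the 4 kinase genes downstream of ERK, Rps6ka5 was higher at 1.20 (at least 0.88), and at 0.85 after lowess. Mknk2 was lower at -1.24, a sign that turned at a common median (0.05). In the parallel JNK, p38 and ERK5 branches 4 of 11 genes were higher and 0 lower. Map2k6 was at 2.44, Mapk8 at 1.94, Map2k4 at 1.52 and Mapk11 at 1.10 (0.67 after lowess). Mapk12 was the lowest at -0.88. The share of all genes called higher here was 22.6%, and the counts of these branches became 8 and 0 at a common median and 3 and 2 after lowess. Mapk13, a p38 gene, was the other pathway gene higher in the urethane than in the saline lung, at 1.23. Of the 7 ERK output genes 3 were higher in FULA 1 than in the saline lung and 1 lower, beside 22.6% and 22% of all genes. The higher ones were Dusp4 at 1.78, Spry2 at 1.53 and Spry4 at 1.52 (at least 1.28). The lower one was Etv5 at -1.14 (-0.59 at a common median). Dusp6 was at 0.13, with its 2 probe sets at -0.27 and 0.54. The sign of the Dusp6 difference rests on the scaling. It turned at a common median (-0.11) and after lowess (-1.99985), where Dusp6 counted as lower. The counts of this list became 5 and 0 at a common median and 3 and 2 after lowess.

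**Figure D4:**
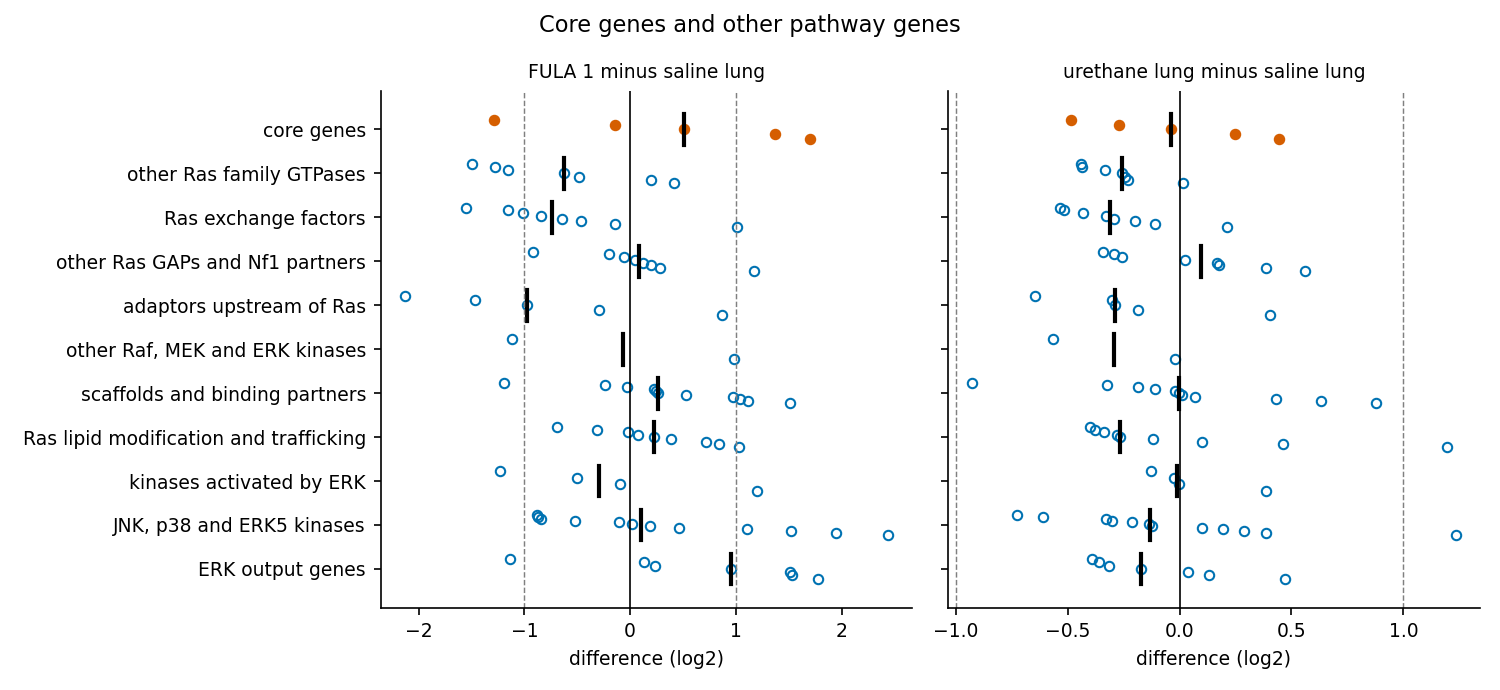
Log2 difference (horizontal axis, with a different range in each panel) of the 5 core genes (filled) and of 73 other pathway genes by list (open), for FULA 1 minus saline lung and urethane minus saline lung; black bars are medians and dashed lines mark 2-fold. The adaptors have the lowest median for FULA 1 minus saline at -0.98 (0.56 at a common median) and the ERK output genes the highest at 0.95. The lowest place rests on the scaling: the other Ras family GTPases hold it at a common median (-0.41) and after lowess (-1.44). Between the lungs only Icmt and Mapk13 pass 2-fold.

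The pathway gene with the pattern nearest to each member was found among 69 candidates, by the Euclidean distance between the pairs of differences (FULA 1 minus saline, urethane minus saline) over these 3 arrays. For Nras it was Ralb (distance 0.14 on the log2 scale), then Rasgrp4 (0.14), which lay below the background mark on FULA 1 and the urethane lung. For Braf it was Lypla1 (0.16), then Lztr1 (0.19). For Map2k1 it was Iqgap1 (0.15), then Mapk11 (0.30), and for Nf1 Map2k4 (0.23), then Spry2 (0.28). Rasa1 had the most distant neighbours, Ppp1cb (0.37) and Spred2 (0.42). These distances were taken under quantile normalization only. All are smaller than the median gap of 1.05 between 2 probe sets of a gene (FULA 1 minus saline).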

How the data were processed

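Total RNA, isolated with Trizol and columns, was biotinylated, per the labels' protocols. The authors deposited log2 values of 41345 probe sets. The submitters' processing notes name RMA (background correction, quantile normalization and probe summary), and the design text GeneSpring GX 12.5. Background setting, annotation and the set of arrays normalized jointly were not given in the sources used here. All 3 columns were used, and 0 others were present.

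The arrays were quantile-normalized to the mean of the 3 ordered columns (ties at their mean rank). Probe sets with 1 symbol (23521; 1814 had several and 16010 none) were named through the platform annotation, updated by Entrez identifier through the RefSeq table of GRCm38.p6 for 23328, and averaged per gene. RefSeq coordinates served for the printed sequences and overlaps only. Ranks were taken over all probe sets. The members, lists, background mark and rule for named genes were chosen with earlier results of these data known. The rule took all members, the extremes of each list and the 2 nearest pathway genes of each member; some extremes were left out for room. Relatives, overlapping genes and sequences were chosen after values were seen. The number of arrays limits the precision. The calling step was run on simulated arrays with planted differences beyond 2-fold and little noise. Such a run checks the code and does not measure the precision of the calls above. Python 3.11.15, pandas 2.3.3, scipy 1.17.1 and statsmodels 0.14.6 were used. Other settings were 4 scalings (lowess span 0.3), thresholds of 1.5-fold and 4-fold, no floor or the 75th percentile, the brightest probe set, and values held at the mark.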

Additional observations from a re-analysis of the deposited data

How the results depend on the processing

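With the values as deposited, where the median difference of all genes was 4.80, 3.69 and 1.09 (FULA 1 minus saline, FULA 1 minus urethane, urethane minus saline), 5 members were higher on FULA 1 and 0 lower against the saline lung, 5 were higher than in the urethane lung, and 3 were higher in the urethane than in the saline lung. Of all genes past the floor 99.5%, 99% and 63.9% were then higher. With a common median the counts were 4 higher and 0 lower (FULA 1 against saline) and 4 higher (FULA 1 against urethane), where 51.6% and 52.9% of all genes were higher. At 4-fold 0 were higher and 0 lower against the saline lung and 0 higher against the urethane lung, and at 1.5-fold Nras made 1 lower against the urethane lung. The difference of Nras (FULA 1 minus saline) turned to 4.91 as deposited and to 0.027 at a common median, and the cause was not tested. Over the 4 other scalings 39 of 60 member differences kept their direction and their side of 2-fold, 8 passed 2-fold, the 2 of Nras turned, and 11 turned without having passed 2-fold before. No floor, the higher floor, the brightest probe set and values held at the mark could not move a member, since each has 1 probe set that lies above both floors and the mark. No paired analysis was possible because each group has 1 array. No replicate could be left out for the same reason.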
